A study of Mus musculus with 12 samples.

Results

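Kupffer cells are the macrophages that live in the sinusoids of the liver. The 33 genes described here mark them, or mark macrophages that arise from blood monocytes: 10 genes of resident Kupffer cells, 4 of monocytes or recruited macrophages, 3 of lipid-associated macrophages, 14 shared by most myeloid cells and 2 scavenger receptors. They were taken as a fixed list of names, and each gene was read from the transcript cluster that the annotation pairs with it alone, the one of highest mean where there were several. Of the 33 genes, 32 had such a cluster (Slc11a1 had none) and 31 were tested (Ms4a7 was too dim), out of 19938 genes with a cluster and 13977 tested.

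The data are 12 Affymetrix Gene 1.0 ST arrays of whole mouse liver taken at 2 weeks of age, 3 arrays (A, B and C) for each of 4 genotypes. Livers with the floxed but intact Stat3 gene (Stat3Fl/Fl, called floxed below) and livers with the deleted gene (Stat3Δhc) were set beside the same 2 states on the Mdr2 knockout (Stat3Fl/FlMdr2-/- and Stat3Δhc Mdr2-/-, called Mdr2-/- floxed and Mdr2-/- Stat3Δhc). Stat3 is the transcription factor activated by interleukin 6 family cytokines, and Mdr2 (gene Abcb4) is the canalicular phospholipid exporter whose loss makes bile toxic to the bile ducts. The series asks which pathways go with cholestasis and bile acid injury when both genes are lost. The labels name no Cre line and no cell type for the deletion, and do not say whether each array is a separate animal, so p-values measure only the spread between these samples. All values are log2 signals, so a difference of 1 is a doubling.

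As background, resident Kupffer cells settle in the liver before birth and renew themselves there. They clear particles and bacteria from portal blood through receptors such as Vsig4, Marco and Clec4f, and they recycle the iron of old red cells. After injury, monocytes that carry Ccr2 enter the liver and can turn into macrophages. Those close to dying cells, lipid or scarred ducts often switch on Trem2, Gpnmb and Lgals3. In whole tissue, fewer cells of a type and less RNA per cell cannot be told apart.

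Several facts about the arrays touch every result. Stat3 signal was 9.19 to 9.54 in the 6 floxed arrays and 7.69 to 8.12 in the 6 Stat3Δhc arrays, and Abcb4 was 10 to 10.28 without and 8.87 to 9.36 with the Mdr2 knockout, so both followed the sample titles. Xist was 11.27 to 11.34 in the 3 Mdr2-/- floxed arrays and in array A of Mdr2-/- Stat3Δhc, and the other 8 arrays carried Y-linked signal. All 9 skeletal muscle genes fell in both Mdr2 comparisons, with a mean of 8.95 to 9.68 on the arrays without and 5.47 to 5.98 on those with the knockout. The 4 tested exocrine pancreas genes averaged 6.15 to 10.65 without and 5.87 to 6.27 with it. Erythroid genes averaged 6.85 to 7.2 without and 6.4 to 6.71 with it, and dendritic cell genes 5.84 to 5.91 and 6.06 to 6.27. Stellate cell genes averaged 9.15 to 9.44 in floxed, 8.85 to 9.18 in Stat3Δhc, 8.86 to 8.9 in Mdr2-/- floxed and 8.32 to 8.54 in Mdr2-/- Stat3Δhc liver. The part of these other tissues in the results below was not tested. Hepatocyte genes, the defining markers of the labelled tissue, averaged 12.66 to 12.89 on all 12 arrays.

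Macrophage promoters often carry the purine box read by PU.1, the transcription factor that directs the myeloid lineage. Promoter windows of 300 bases (250 before and 50 after the RefSeq start, build GRCm38.p6) matched 28 of the 33 genes in 31 windows. The box GAGGAA, searched on both strands, lay in 16 of these 31 windows (51.6%), from 15 genes, and in 28.3% of all 32851 windows of this length. The letters CACGTG, the E-box of lysosomal gene regulators, lay in 0 of the 31 windows against 7.15% of all. TTCNNNGAA, the STAT palindrome, lay in 1 of the 31 (3.23%) against 8.3% of all. A base could count in more than 1 of these motifs, and a match is a description of letters, not of binding. Windows of 3 genes that rose with Mdr2 loss in both Stat3 states, Cybb, Ctss and Laptm5, are shown beside that of Marco, a resident gene that fell with Mdr2 loss in floxed liver. The lines read 5′ to 3′ along the gene, and capitals mark the purine box or its complement. They are Cybb (chrX:9469275-9469574, minus strand), Ctss (chr3:95526536-95526835, plus strand), Laptm5 (chr4:130913066-130913365, plus strand) and Marco (chr1:120504975-120505274, minus strand).
Cybb: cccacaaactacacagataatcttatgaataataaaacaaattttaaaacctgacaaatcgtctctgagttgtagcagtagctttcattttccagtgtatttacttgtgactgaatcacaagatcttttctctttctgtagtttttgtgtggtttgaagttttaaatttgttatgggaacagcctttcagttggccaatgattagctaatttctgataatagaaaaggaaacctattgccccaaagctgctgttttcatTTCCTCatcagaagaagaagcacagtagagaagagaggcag
Ctss: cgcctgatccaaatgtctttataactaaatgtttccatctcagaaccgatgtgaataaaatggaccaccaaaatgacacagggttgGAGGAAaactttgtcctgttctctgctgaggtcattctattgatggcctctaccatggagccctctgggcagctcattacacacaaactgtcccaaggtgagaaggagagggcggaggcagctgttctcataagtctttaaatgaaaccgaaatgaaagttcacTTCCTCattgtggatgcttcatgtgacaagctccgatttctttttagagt
Laptm5: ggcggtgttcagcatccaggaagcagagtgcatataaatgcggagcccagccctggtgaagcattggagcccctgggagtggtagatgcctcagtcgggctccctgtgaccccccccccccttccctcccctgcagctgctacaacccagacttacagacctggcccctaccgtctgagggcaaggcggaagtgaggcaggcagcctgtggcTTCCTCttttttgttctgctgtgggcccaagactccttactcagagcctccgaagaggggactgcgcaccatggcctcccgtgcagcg
Marco: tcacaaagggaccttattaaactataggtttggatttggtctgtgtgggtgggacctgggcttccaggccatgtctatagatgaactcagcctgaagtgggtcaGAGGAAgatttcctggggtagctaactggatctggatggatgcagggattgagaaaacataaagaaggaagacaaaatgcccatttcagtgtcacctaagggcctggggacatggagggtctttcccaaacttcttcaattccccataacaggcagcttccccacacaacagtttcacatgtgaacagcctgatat
The box nearest the start began 9 bases after it in Cybb, 38 bases before it in Laptm5 and 146 bases before it in Marco, and at the start itself in Ctss, whose window held 2 boxes. Every window shown thus holds the box, whichever way the gene moved. The windows of Gpnmb, Cx3cr1 and Mpeg1, which rose in both Stat3 states, held 0 boxes. So did those of Folr2, which fell in both.

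The listed resident and incoming macrophage genes lay further apart on the arrays with the Mdr2 knockout, and furthest on those with Stat3 also deleted. The 9 measured resident genes, each taken relative to its own mean in floxed liver, averaged -0.32, 0.1 and 0.22 on floxed arrays A, B and C and -0.24, -0.42 and -0.13 on the Stat3Δhc arrays. On the knockout they averaged -0.31, -0.17 and -0.2 in Mdr2-/- floxed and -0.32, -0.74 and -0.69 in Mdr2-/- Stat3Δhc liver. The knockout arrays thus lay within the range of the other 6, except arrays B and C of Mdr2-/- Stat3Δhc. The 4 monocyte or recruited genes averaged -0.16 to 0.09 in floxed and -0.14 to -0.05 in Stat3Δhc liver, but 0.1, 0.27 and 0.96 in Mdr2-/- floxed and 0.87, 0.49 and 0.71 in Mdr2-/- Stat3Δhc liver. The recruited mean minus the resident mean was -0.15 to 0.28 on the 6 arrays without the knockout, 0.41, 0.44 and 1.16 in Mdr2-/- floxed and 1.2, 1.22 and 1.4 in Mdr2-/- Stat3Δhc liver. The 4 genotypes therefore fell into 3 ranges that did not overlap but in places lay close together, the lowest holding both genotypes without the knockout. For the 3 lipid-associated genes minus the resident ones the ranges were -0.22 to 0.4, 0.41 to 0.89 and 1.19 to 1.34. These gaps describe lists chosen with earlier results known, and no test was made on them. The lists include Ccr2 and Gpnmb, which passed the filter on low values only through Mdr2-/- arrays. The 20 other Kupffer cell genes treated below averaged -0.21 to 0.12 in floxed and -0.29 to -0.08 in Stat3Δhc liver. On the knockout they averaged 0.1 to 0.14 in Mdr2-/- floxed and -0.26 to 0.04 in Mdr2-/- Stat3Δhc liver. Their range with the knockout was thus close to that without it. Monocyte genes outside the members (4 measured) averaged -0.17 to 0.14 without the knockout. On it they averaged 0.16, 0.17 and 0.57 in Mdr2-/- floxed and 0.54, -0.05 and 0.05 in Mdr2-/- Stat3Δhc liver. The 18 other lipid-associated genes measured averaged -0.31 to 0.13 without it. With it they averaged 0.19 to 0.34 in Mdr2-/- floxed and 0.07 to 0.31 in Mdr2-/- Stat3Δhc liver. On the knockout, neither list had a higher mean with Stat3 also deleted. Gaps to these other genes were not computed.

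**Figure D1:**
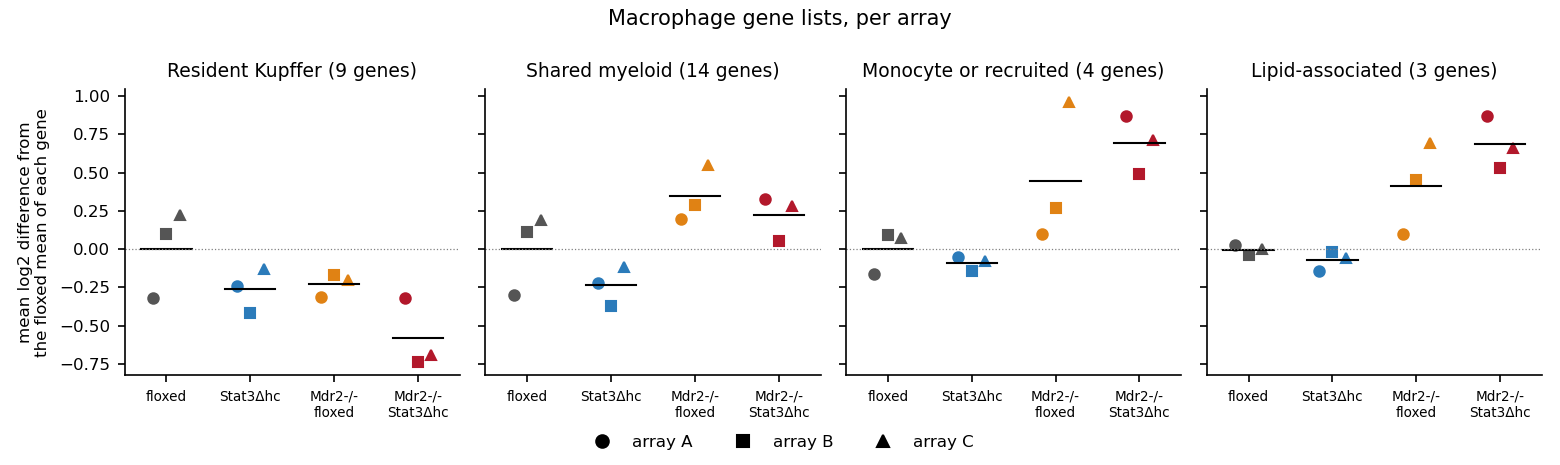
Mean log2 difference from the floxed mean for 4 lists of macrophage genes, 1 point per array (circle A, square B, triangle C) and a bar at the mean of 3 arrays, by genotype. The recruited and lipid-associated points of both Mdr2-/- genotypes lie above the floxed mean. The resident points lie below it on all Mdr2-/- arrays, down to -0.74, and on all Stat3Δhc arrays without the knockout, down to -0.42. Array A of floxed lies low for resident and shared genes.

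One floxed array weighs on every comparison with that genotype. Array A of floxed was the lowest of its 3 arrays for 28 of the 32 genes, by 0.25 below the genotype mean on average, while its median over all clusters (6.05) was close to those of arrays B and C (6.06 and 6.05). Array B was the lowest of 3 for 24 genes in Stat3Δhc and for 26 in Mdr2-/- Stat3Δhc liver, and array A for 23 in Mdr2-/- floxed liver. Within a genotype, most of these genes were thus low or high on the same array.

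The first comparison asked what Stat3 deletion does to macrophage genes in livers with Mdr2. None of the 31 tested genes passed an adjusted p of 0.05 in limma (Benjamini-Hochberg over 13977 genes), where 1.51% of all genes passed as higher and 1.07% as lower. At an unadjusted p under 0.05, 0 were higher and 8 were lower, 25.8% of the 31 against 16.4% of all genes in either direction. Their median log2 change was -0.17 (27 negative, 4 positive), against -0.01 over all tested genes. At the same unadjusted p, 5 of 5 tested lymphocyte markers were lower (median change -0.33), with 0 called. Of 7 sinusoidal endothelial genes 1 was lower and 0 higher. Marco, a scavenger receptor for bacteria and particles, read 8.45, 9.36 and 9.64 in floxed and 8.37, 8.18 and 8.52 in Stat3Δhc liver. The ranges overlapped through floxed array A alone, and the change was -0.79 (95% interval -1.34 to -0.24, adjusted p = 0.124 in limma). Without floxed array A, 6 genes passed, all lower in Stat3Δhc liver, where 5.39% of all genes did: Adgre1 (-0.55), Marco (-1.14), Timd4 (-0.59), Csf1r (-0.43), Cd68 (-0.44) and Tyrobp (-0.42), with adjusted p from 0.00518 to 0.0391. These 6 genes read lowest of the floxed arrays on array A, so leaving it out was bound to deepen their falls. The 6 calls are therefore no separate support. Leaving out any other array called 0 genes. With array weights 11 passed, but 21.1% of all genes then did.

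On the Mdr2 knockout, Stat3 deletion went with lower Adgre1 and Csf1r and higher Lgals3. Among all genes 1.87% passed as higher and 3.9% as lower, and among the 31 genes 1 was higher and 2 were lower, with a median change of -0.06 against -0.03 over all genes. Adgre1, which encodes the F4/80 surface antigen used to stain mouse macrophages, read 8.62, 8.77 and 8.68 in Mdr2-/- floxed and 8.29, 7.98 and 8.12 in Mdr2-/- Stat3Δhc liver. The groups did not overlap, and the gene fell by 0.56 on the log2 scale (1.48-fold, SE 0.15, adjusted p = 0.0461 in limma). Csf1r, the receptor for the survival factor CSF1, read 9.52, 9.47 and 9.71 against 9.17, 8.88 and 9.04. It too did not overlap and fell by 0.54 (1.45-fold, SE 0.12, adjusted p = 0.0228). Lgals3, the secreted lectin galectin-3, rose by 0.44 (1.36-fold, SE 0.11, adjusted p = 0.0384), from 7.4, 7.52 and 7.76 to 8.2, 7.85 and 7.94, with no overlap.

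These 3 calls were close to the threshold. Csf1r was lost without Mdr2-/- floxed C or Mdr2-/- Stat3Δhc B or C (adjusted p = 0.0533 to 0.0821 in limma). Adgre1 was lost without Stat3Δhc A, floxed B, any of the Mdr2-/- floxed arrays, or Mdr2-/- Stat3Δhc B or C (0.0608 to 0.131). Lgals3 was lost in 8 such fits, those without Stat3Δhc A or B, floxed B or C, Mdr2-/- floxed A or B, or Mdr2-/- Stat3Δhc A or C (0.0508 to 0.111). Leaving out 1 array moved the count from 3 to 8 (without Mdr2-/- Stat3Δhc A), 5 (without floxed A), 1 (without Stat3Δhc A, floxed B, Mdr2-/- floxed A or B, or Mdr2-/- Stat3Δhc B) or 0 (without Mdr2-/- Stat3Δhc C). The count was 2 without Stat3Δhc B, floxed C or Mdr2-/- floxed C. Without Mdr2-/- Stat3Δhc A all 8 were lower, whereas without Mdr2-/- floxed C 2 were higher and 0 lower. The share of all genes called moved too, from 5.77% in the main fit to 10.6% without Mdr2-/- Stat3Δhc A. It was 5.99% without floxed A, 2.9% to 4.95% in the fits that called 2, 2.16% to 4.41% in the fits that called 1, and 3.33% without Mdr2-/- Stat3Δhc C. The Mdr2-/- floxed arrays all carry the Xist pattern and 2 of the 3 Mdr2-/- Stat3Δhc arrays the Y-linked one. A fit with that pattern as a covariate called 0 of the 31 genes, where 0.265% of all genes passed, but it rests on the single Xist array A of Mdr2-/- Stat3Δhc, its median standard error was 0.151, and its 0 says little about these genes.

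The other resident genes on the knockout are given by their values, since none passed. Vsig4, the complement receptor that binds C3b-coated bacteria, read 9.69, 9.77 and 9.64 in Mdr2-/- floxed and 9.46, 9.17 and 8.86 in Mdr2-/- Stat3Δhc liver (change -0.54, adjusted p = 0.051 in limma). Vsig4 lies on the X chromosome, and these genotypes differ in the Xist or Y-linked pattern. Clec4f, a lectin found in the mouse on Kupffer cells, read 9.47, 9.47 and 9.42 against 9.25, 9.01 and 9.12 (-0.33, adjusted p = 0.0686). Timd4, which binds phosphatidylserine on dying cells, read 7.91, 8.11 and 8.05 against 7.82, 7.29 and 7.52 (-0.48, adjusted p = 0.0788). In these 3 genes every array of Mdr2-/- Stat3Δhc lay below every array of Mdr2-/- floxed, as for Folr2 (-0.28) and Spic (-0.39). How many of all tested genes separate in this way was not counted, for this or any other comparison. Cd163, the receptor for haemoglobin bound to haptoglobin, read 7.1, 7.53 and 7.59 against 7.63, 6.79 and 6.51, so its array A stood at the top and arrays B and C at the bottom of all 6. Cd5l, a soluble protein secreted by macrophages, differed from the other 8 in sign, at 0.17 (adjusted p = 0.424). At an unadjusted p under 0.05, 6 of the 9 resident genes (66.7%) were lower and 0 higher, against 28% of all tested genes in either direction. In the same comparison 6 of 7 sinusoidal endothelial genes (85.7%) were lower at that p with 0 called, and 3 of 5 stellate cell genes fell. Their part in the resident values was not tested.

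**Figure D2:**
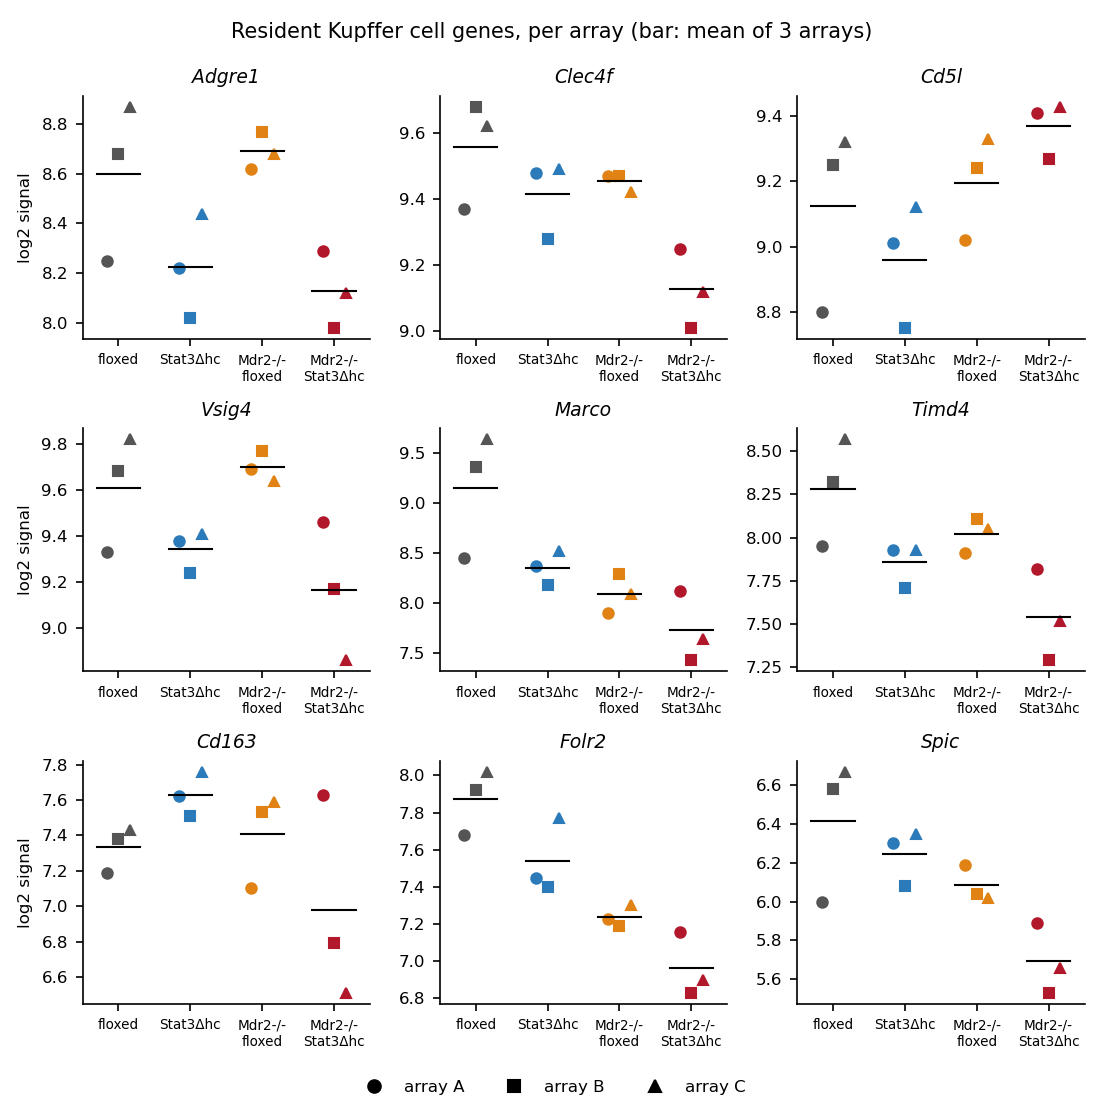
Log2 signal of the 9 resident Kupffer cell genes with a cluster, 1 point per array (circle A, square B, triangle C) and a bar at the genotype mean; each panel has its own log2 axis. For Folr2 every Mdr2-/- array lies below every floxed and Stat3Δhc array, while Cd5l is at its highest mean in Mdr2-/- Stat3Δhc liver.

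The next comparison asked what Mdr2 loss does in floxed liver. Cd14, Cybb, Ctss, Laptm5, Mpeg1, Cx3cr1 and Gpnmb rose and the resident genes Folr2 and Marco fell, 7 of 31 higher and 2 lower, where 7.12% and 5.65% of all genes did. The median change of the 31 was 0.09 against 0 over all genes. The 3 Mdr2-/- floxed arrays carry Xist and the 3 floxed arrays carry Y-linked signal, so Mdr2 loss and this pattern cannot be told apart here. Cybb itself lies on the X chromosome. A covariate for the pattern called 0 of the 31 genes, where 0.73% of all genes passed, but it rests on array A of Mdr2-/- Stat3Δhc alone and had a median standard error of 0.192.

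Cd14, the receptor that presents bacterial lipopolysaccharide to Tlr4, had the largest rise of the 31 in floxed liver. It read 5.6, 5.44 and 5.69 in floxed and 6.62, 6.93 and 7.52 in Mdr2-/- floxed liver, a rise of 1.45 (2.72-fold, SE 0.25, adjusted p = 0.0027 in limma). Cybb, the membrane subunit of the phagocyte NADPH oxidase, rose from 8.08, 8.52 and 8.72 to 9.33, 9.15 and 9.53 (0.9, 1.86-fold, SE 0.17, adjusted p = 0.00393). Ctss, a lysosomal protease of antigen processing, rose from 8.64, 9.05 and 9.26 to 9.42, 9.67 and 9.77 (0.64, SE 0.15, adjusted p = 0.0144). The groups did not overlap in any of the 3. Laptm5, a lysosomal membrane protein of blood cells, and Mpeg1, the pore-forming protein of macrophage phagosomes, rose by 0.53 and 0.56 (adjusted p = 0.0375 and 0.0398). Cx3cr1, the fractalkine receptor, read 6.29, 6.43 and 6.4 against 6.81, 6.76 and 7.5 (0.65, SE 0.19, adjusted p = 0.0359). Gpnmb, a lysosomal glycoprotein of lipid-laden macrophages, read 5.22, 5.19 and 5.21 against 5.39, 6.21 and 6.5 (0.83, SE 0.22, adjusted p = 0.0276); it passed the filter on low values only through Mdr2-/- arrays and so had to differ. Array C of Mdr2-/- floxed was the highest in all 7 genes, and array A the lowest of its group in all but Cybb, Cx3cr1 and Laptm5.

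Folr2, the folate receptor of resident macrophages, fell in floxed liver by 0.63 (1.55-fold, SE 0.12, adjusted p = 0.00484 in limma), from 7.68, 7.92 and 8.02 to 7.23, 7.19 and 7.3. Marco fell by 1.05 (2.08-fold, SE 0.25, adjusted p = 0.0166), from 8.45, 9.36 and 9.64 to 7.9, 8.29 and 8.09. Its groups were separated only narrowly, at floxed array A. The other 7 resident genes did not pass, among them Adgre1 at 0.09, Vsig4 at 0.09, Clec4f at -0.10 and Timd4 at -0.26. Nor did Ccr2, at 4.91, 5.11 and 5.36 against 5.49, 5.67 and 6.95 (0.91, adjusted p = 0.061), or Trem2 (0.27, adjusted p = 0.097), whose groups did not overlap. Cd14, Cybb and Folr2 passed whichever array was left out. Without Mdr2-/- floxed C only these 3 passed, where 8.05% of all genes did. In turn, 5 genes passed without floxed A, B or C, where 9.4%, 7.99% and 7.91% of all genes did. Marco was lost without floxed B or C or Mdr2-/- floxed A or C (adjusted p = 0.052 to 0.0733), and Ctss without floxed A or Mdr2-/- floxed C (0.0503 and 0.0642). Cx3cr1, Gpnmb, Laptm5 and Mpeg1 were each lost without floxed A or Mdr2-/- floxed C. They were also lost without Stat3Δhc A (all but Gpnmb), floxed B (all but Laptm5), floxed C (all but Mpeg1), Mdr2-/- floxed A (Laptm5 and Mpeg1) or Mdr2-/- floxed B (all but Cx3cr1), with adjusted p from 0.0521 to 0.159 in these fits.

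Mdr2 loss in Stat3Δhc liver gave the most calls. Of the 31 genes 13 rose and 3 fell, where 6.9% of all genes were called higher and 10.5% lower, and the median change was 0.4 against -0.02 over all genes. All 3 lipid-associated genes, 3 of the 4 recruited genes and 7 of the 13 tested shared myeloid genes rose. Of the 9 resident genes 2 fell and 0 rose. The comparison shares the Mdr2-/- Stat3Δhc arrays with the one on Stat3 deletion above. At an unadjusted p under 0.05, 18 of the 31 were higher and 6 lower, 77.4% against 34.7% of all genes in either direction. Ccr2, like Gpnmb, passed the filter only through Mdr2-/- arrays and so had to differ. For Itgax, 5 of the 7 arrays above the filter were Mdr2-/- arrays, so the counts are a description. With no filter Ccr2 and Gpnmb still passed (adjusted p = 0.0348 and 0.00496 in limma).

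The recruited genes rose as follows. Itgax, the integrin CD11c, read 5.37, 5.43 and 5.3 in Stat3Δhc and 6.14, 6.11 and 6.26 in Mdr2-/- Stat3Δhc liver, a rise of 0.81 (1.75-fold, SE 0.12, adjusted p = 0.00095 in limma). Cx3cr1 rose by 0.86 (1.81-fold, SE 0.19, adjusted p = 0.00821), from 6.49, 6.4 and 6.47 to 7.42, 6.93 and 7.58. Ccr2, the receptor that draws monocytes from the bone marrow towards Ccl2, rose by 1.03 (2.05-fold, SE 0.29, adjusted p = 0.0303), from 5.16, 5.09 and 5.28 to 6.56, 6.02 and 6.05. None of these groups overlapped. Itgam, the integrin CD11b, read 6.09, 5.83 and 5.94 against 6.67, 6.17 and 6.25 and did not pass (0.41, adjusted p = 0.133), although its groups did not overlap either. Ccr2 was lost without any of the Stat3Δhc arrays or without Mdr2-/- Stat3Δhc A or C (0.0563 to 0.0788), whereas Itgax and Cx3cr1 passed whichever array was left out.

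Lipid-associated genes rose together. Gpnmb read 4.96, 5.14 and 5.05 in Stat3Δhc and 6.45, 5.87 and 6.27 in Mdr2-/- Stat3Δhc liver, a rise of 1.15 (2.22-fold, SE 0.22, adjusted p = 0.00424 in limma). Lgals3 rose by 0.64 (1.55-fold, SE 0.11, adjusted p = 0.00233), from 7.28, 7.36 and 7.44 to 8.2, 7.85 and 7.94. Trem2, a lipid receptor that signals through Tyrobp, rose by 0.48 (1.40-fold, SE 0.10, adjusted p = 0.00647), from 6.1, 6.18 and 6.08 to 6.69, 6.62 and 6.5. The 3 genes passed whichever array was left out, though Gpnmb entered the test only through Mdr2-/- arrays and so had to differ. Lgals3 is also made by other cells of injured liver, and its source was not tested.

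**Figure D3:**
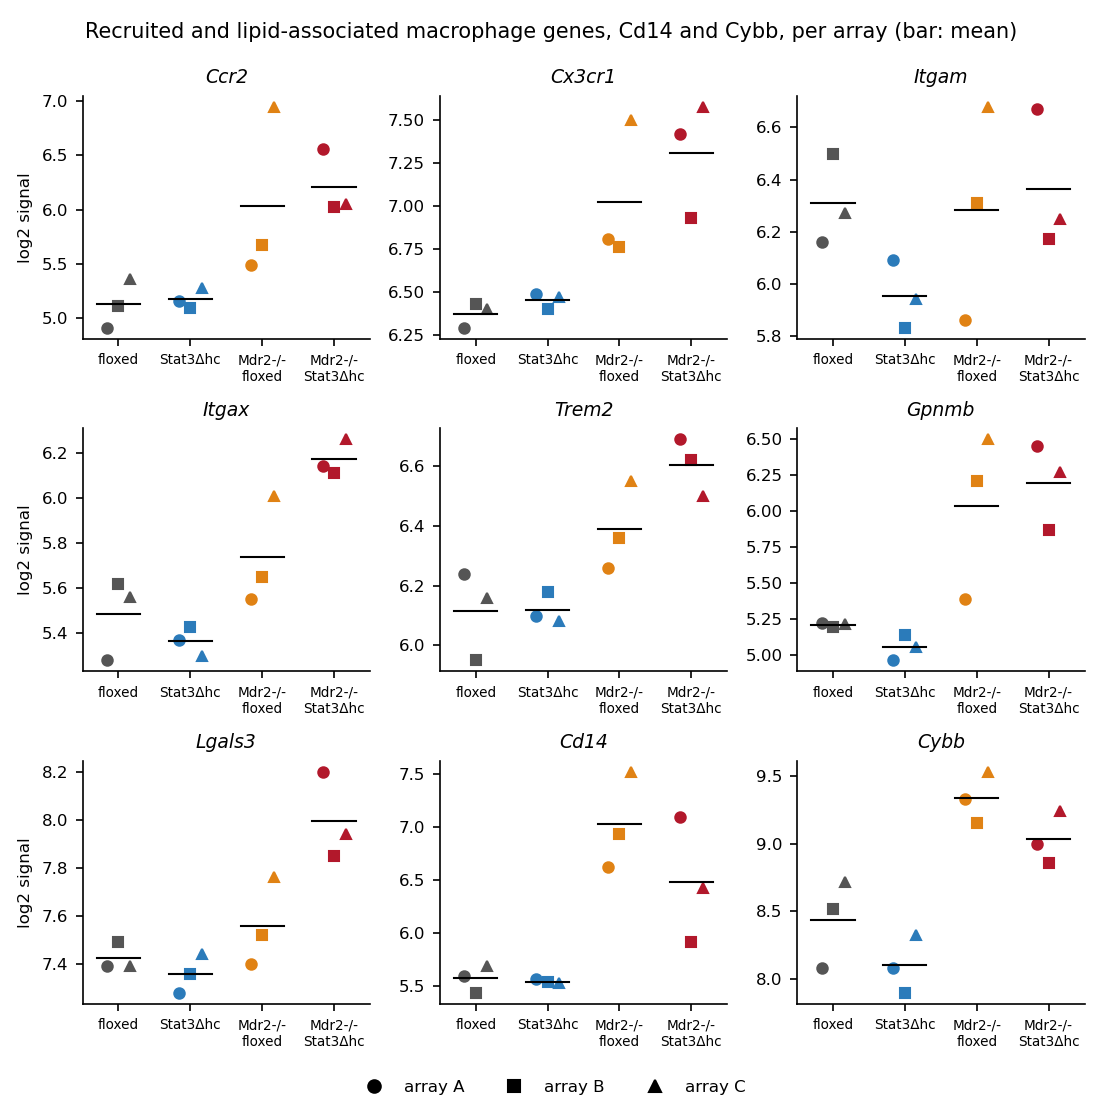
Log2 signal of the 4 recruited and 3 lipid-associated macrophage genes with Cd14 and Cybb, 1 point per array (circle A, square B, triangle C) and a bar at the genotype mean; each panel has its own log2 axis. In Mdr2-/- floxed liver array C stands high for Ccr2 (6.95) and Cx3cr1 (7.5), and in Mdr2-/- Stat3Δhc liver all 3 arrays of Itgax lie above every other array.

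Among the shared myeloid genes, Cybb, Ctss, Mpeg1, Laptm5, Cd14, Fcgr1 and Cd68 rose with Mdr2 loss in Stat3Δhc liver. Cybb went from 8.08, 7.9 and 8.33 to 9, 8.86 and 9.24 (0.93, 1.91-fold, SE 0.17, adjusted p = 0.00265 in limma). Cd14 went from 5.57, 5.54 and 5.53 to 7.09, 5.92 and 6.43 (0.93, SE 0.25, adjusted p = 0.0242), and Ctss from 8.89, 8.68 and 9.01 to 9.6, 9.42 and 9.67 (0.7, SE 0.15, adjusted p = 0.00779). Array B of Mdr2-/- Stat3Δhc was the lowest of its 3 in each of these genes, yet above every Stat3Δhc array. Mpeg1 rose by 0.69 and Laptm5 by 0.63 (adjusted p = 0.0123 and 0.0139). Fcgr1, the high-affinity IgG receptor, rose by 0.45, and Cd68, a lysosomal glycoprotein used as a general macrophage stain, by 0.38 (adjusted p = 0.0383 and 0.0414). Cybb, Ctss, Mpeg1 and Laptm5 passed whichever array was left out. Cd14 and Fcgr1 were lost without Stat3Δhc A or Mdr2-/- Stat3Δhc A or C, and further Cd14 without Stat3Δhc C and Fcgr1 without Stat3Δhc B (0.0571 to 0.136). Cd68 was lost without any of the 6 compared arrays, or Mdr2-/- floxed B or C (0.0501 to 0.144).

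The other shared myeloid genes did not pass. Lyz2, the macrophage lysozyme, read 8.85, 8.38 and 9.08 against 9.67, 9.28 and 9.41 (0.69, adjusted p = 0.0717 in limma), and its probes can also pick up the near-identical Lyz1. Fcer1g and Tyrobp, the adaptor chains of Fc receptors and of Trem2, differed by 0.4 and 0.3 (adjusted p = 0.0885 and 0.115), with no overlap between groups. Fcgr3, which shares much sequence with other Fc receptor genes, differed by 0.28 (adjusted p = 0.172), and Aif1, the actin-binding protein Iba1, by -0.04. Csf1r was lower, at 9.2, 9.2 and 9.31 against 9.17, 8.88 and 9.04 (-0.21, adjusted p = 0.226), without overlap. Ms4a7, which was not tested, read 4.6 to 4.81 against 4.78 to 5.16, under the 40th percentile of every array.

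Of the resident and scavenger genes, Folr2, Spic and Mrc1 fell with Mdr2 loss in Stat3Δhc liver. Folr2 fell by 0.58 (1.49-fold, SE 0.12, adjusted p = 0.00708 in limma), from 7.45, 7.4 and 7.77 to 7.16, 6.83 and 6.9. Spic, the transcription factor of macrophages that recycle red-cell iron, fell by 0.55 (1.47-fold, SE 0.16, adjusted p = 0.0307), from 6.3, 6.08 and 6.35 to 5.89, 5.53 and 5.66. Mrc1, the mannose receptor CD206, which sinusoidal endothelium also carries, fell by 0.45 (1.36-fold, SE 0.12, adjusted p = 0.024), from 9.5, 9.45 and 9.63 to 9.24, 9.15 and 8.85. None of the 3 overlapped. Sinusoidal endothelial genes averaged 9.05 to 9.15 in Stat3Δhc and 8.69 to 8.93 in Mdr2-/- Stat3Δhc liver, with no overlap, and 2 of 7 fell. Of 5 stellate cell genes 4 fell and 1 rose. Their part in the falls of Mrc1, Folr2 and Spic was not tested. Folr2 passed whichever array was left out, Spic was lost without Stat3Δhc A or C or Mdr2-/- Stat3Δhc B or C (0.0827 to 0.114), and Mrc1 without Stat3Δhc A or C or Mdr2-/- Stat3Δhc C (0.0599 to 0.0994). Msr1, the other scavenger receptor, differed by -0.04 (adjusted p = 0.896).

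Of the 9 resident genes, 8 were negative and 1 positive with Mdr2 loss in Stat3Δhc liver, with 5 lower and 1 higher at an unadjusted p under 0.05. Among those that did not pass, Clec4f differed by -0.29, Timd4 by -0.32 and Vsig4 by -0.18. Marco read 8.37, 8.18 and 8.52 against 8.12, 7.43 and 7.64 (-0.63, adjusted p = 0.105 in limma), and Cd163 7.62, 7.51 and 7.76 against 7.63, 6.79 and 6.51 (-0.65, adjusted p = 0.0631). Cd5l was higher on every Mdr2-/- Stat3Δhc array, at 9.01, 8.75 and 9.12 against 9.41, 9.27 and 9.43 (0.41, adjusted p = 0.0617). Adgre1 differed by -0.10 (adjusted p = 0.655), although it was among the lower genes when the 2 Mdr2-/- genotypes were compared.

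The Stat3Δhc comparison could be checked within 1 pattern of the sex-linked genes. On the 8 Y-linked arrays alone, which leave 2 Mdr2-/- Stat3Δhc arrays against 3 Stat3Δhc, 15 genes passed (11 higher, 4 lower), 14 of the 16 above among them, where 16.5% of all genes passed. With the pattern as a covariate 14 passed, 9 higher and 5 lower, where 18.7% of all genes did. Array A of Mdr2-/- Stat3Δhc is the only Xist array in this comparison. The covariate fit therefore gave the same counts as leaving that array out, and it is not a further check. Without Stat3Δhc A or without Mdr2-/- Stat3Δhc C the count was 10, where 10.1% and 11% of all genes passed.

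**Figure D4:**
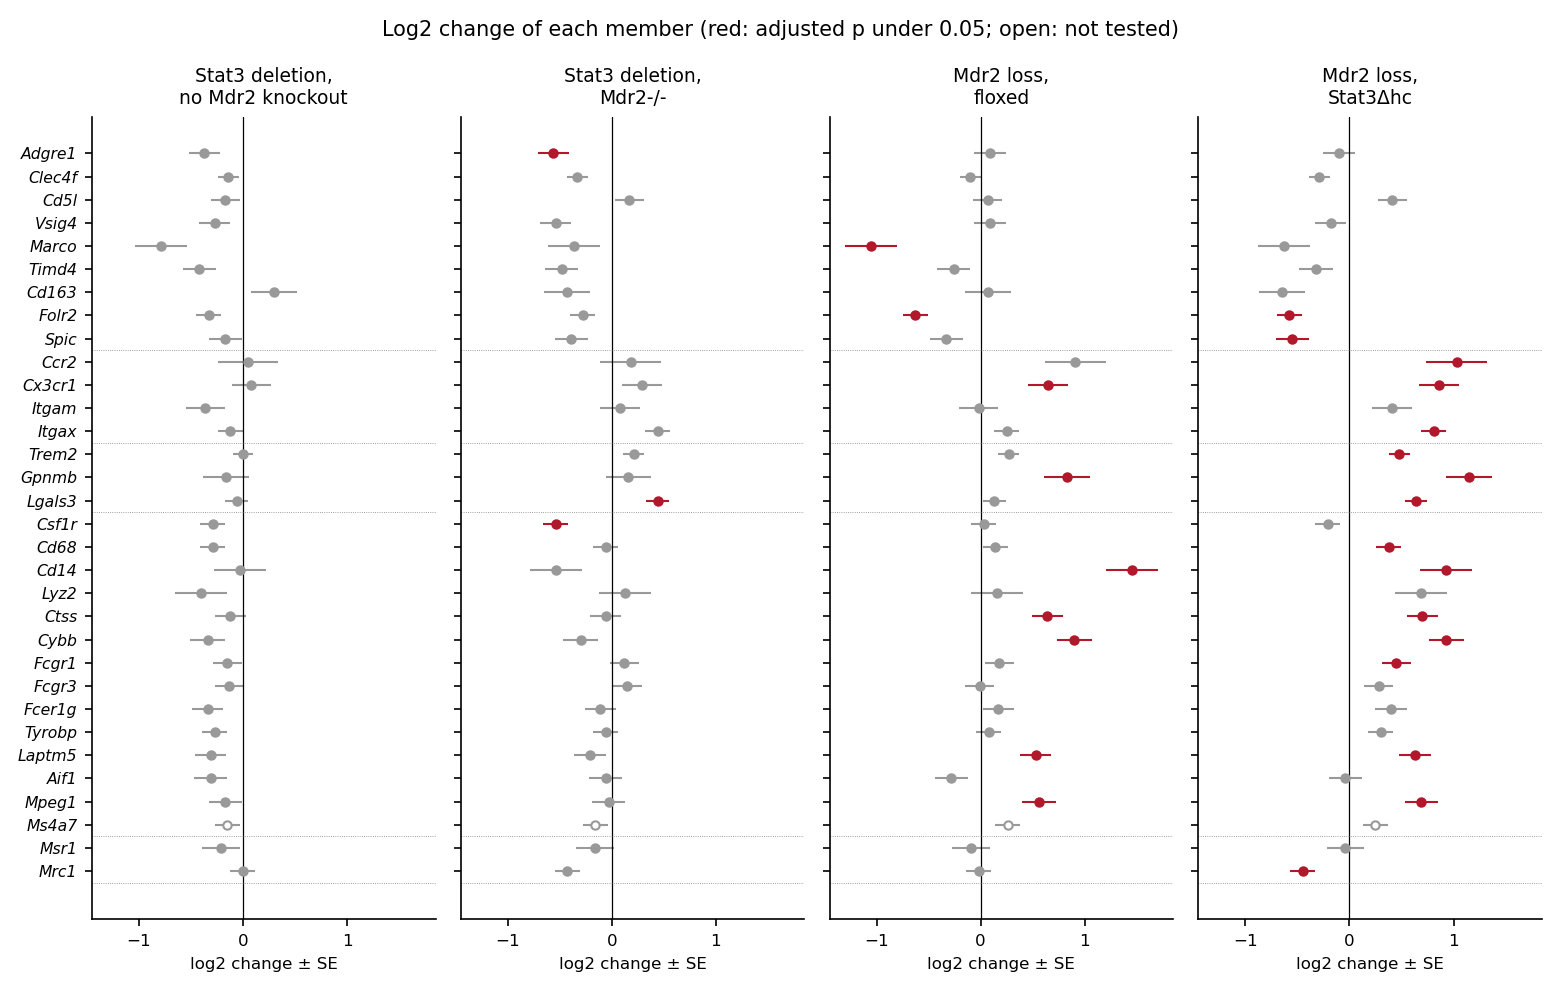
Log2 change with its standard error for the 32 genes with a cluster in 4 comparisons, red where the adjusted p was under 0.05 and open for Ms4a7, which was not tested; dotted lines separate resident, recruited, lipid-associated, shared myeloid and scavenger genes. There are 0 red points for Stat3 deletion without the knockout, 3 with it, 9 for Mdr2 loss in floxed liver and 16 in Stat3Δhc liver.

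Set side by side, the Mdr2 comparisons in floxed and Stat3Δhc liver use different arrays. They called 8 of these genes in common, which is 8 of 9 calls in floxed (88.9%) and 8 of 16 in Stat3Δhc liver (50%). Over all tested genes 894 calls were shared in direction, 50.1% of the 1785 in floxed and 36.8% of the 2431 in Stat3Δhc liver, and whether the members differ from these shares was not tested. Of the members, Cd14, Cybb, Ctss, Gpnmb, Cx3cr1, Laptm5 and Mpeg1 rose in both, and Folr2 fell in both. Cybb changed by 0.9 and 0.93 and Ctss by 0.64 and 0.7. Cd14 changed by 1.45 and 0.93, and Marco by -1.05 and -0.63. Whether the changes differ is the test of the interaction, in which 0 of the 31 genes passed, with 0.0143% of all genes higher and 0.0572% lower. At an unadjusted p under 0.05, 2 of the 31 were higher and 2 lower, 12.9% against 16.9% of all genes, so the 4 are given as values only, and limma with array weights also called 0. The 2 higher ones were Itgax (0.56, 95% interval 0.19 to 0.93) and Lgals3 (0.5, interval 0.16 to 0.84), both at an adjusted p of 0.224 in limma, with Mdr2 loss giving 0.25 and 0.81 for Itgax and 0.13 and 0.64 for Lgals3. The 2 lower ones were Cd163 (-0.72, adjusted p = 0.28) and Mrc1 (-0.43, adjusted p = 0.26). For Cybb the interaction was 0.04 with a standard error of 0.24, so a difference of that order in either direction is within its error.

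Among the further lists, the shares called over all genes in either direction were 2.58% and 5.77% for Stat3 deletion without and with the knockout, and 12.8% and 17.4% for Mdr2 loss in floxed and Stat3Δhc liver. Of 11 tested growth factors, receptors and chemoattractants of macrophages, 0 passed with Stat3 deletion in either Mdr2 state, 1 rose with Mdr2 loss in floxed liver (9.09%) and 5 in Stat3Δhc liver (45.5%). Ccl2, the ligand of Ccr2, rose by 1.08 and 1.2 (adjusted p = 0.0314 and 0.0162 in limma), though only 2 of the 6 arrays without the knockout lay above the filter, against 6 of 6 with it. Csf3r, the granulocyte colony factor receptor, rose by 0.78 in Stat3Δhc liver (adjusted p = 0.00187), Csf2rb by 0.66 (0.0053) and Csf1, the ligand of Csf1r, by 0.43 (0.0107). At an unadjusted p under 0.05, 3 were lower with Stat3 deletion without the knockout and 0 passed with it. Of 6 tested neutrophil markers, 0 passed in any comparison, with 2 lower at an unadjusted p under 0.05 for Stat3 deletion without the knockout and 1 higher in the interaction.

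Of 20 other genes known from Kupffer cells, 1 fell with Stat3 deletion without the knockout (5%) and 5 fell with it (25%), while 4 rose with Mdr2 loss in floxed liver (20%) and 4 rose and 4 fell in Stat3Δhc liver (40%). Adgre4, the F4/80-like receptor, fell with Stat3 deletion on the knockout by 1.26 (adjusted p = 0.00544 in limma) and with Mdr2 loss in Stat3Δhc liver by 1.31 (0.0013), comparisons that share the Mdr2-/- Stat3Δhc arrays. Slc40a1, the iron exporter ferroportin, fell with Stat3 deletion by 0.48 without and 0.56 with the knockout (0.0376 and 0.0122). Fcna, a ficolin made by macrophages, fell by 0.84 with Mdr2 loss in Stat3Δhc liver (0.00105).

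Of 17 other genes known from lipid-associated macrophages, 4 rose with Mdr2 loss in floxed liver (23.5%), and 8 rose and 1 fell in Stat3Δhc liver (52.9%). Mmp12, the macrophage elastase, rose by 2.13 and 2.42 (adjusted p = 0.00034 and 0.000111 in limma). It lay above the filter on 1 of the 6 arrays without the knockout and 6 of 6 with it, so it passed the filter through the arrays where it was high. Atp6v0d2, a lysosomal proton pump subunit, rose by 1.24 and 2.08 (0.00535 and 0.000154). With Stat3 deletion 1 fell without the knockout (5.88%), and 1 rose and 1 fell with it (11.8%). The gene that fell was in both cases Fabp5, a fatty acid carrier also made by other cells, by 2.27 and 2.13 (0.00233 and 0.00341).

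Of 13 tested activation genes, 1 rose (7.69%) with Stat3 deletion without the knockout, 1 with it and 1 with Mdr2 loss in floxed liver, and 3 (23.1%) in Stat3Δhc liver. With Stat3 deletion the gene was Arg1 without the knockout and Nos2 with it. The cells that gave these signals in whole liver were not tested. Tlr2, the receptor for bacterial lipoproteins, rose with Mdr2 loss by 0.63 in floxed and 1.07 in Stat3Δhc liver (adjusted p = 0.0045 and 0.000111 in limma). Of 17 tested genes that signal through the Tyrobp and Fcer1g adaptors or beside them, 0 passed with Stat3 deletion (6 without and 2 with the knockout were lower at an unadjusted p under 0.05), and 2 and 4 rose with Mdr2 loss (11.8% and 23.5%). Clec7a, the receptor for fungal glucans, rose by 0.79 and 0.86 (0.00281 and 0.00154). Of 16 lineage factors, 2 fell with Stat3 deletion on the knockout and 2 with Mdr2 loss in floxed liver (12.5% each), and 2 rose and 2 fell in Stat3Δhc liver (25%). Irf8, a factor of monocyte and dendritic cell fate, rose by 0.49 there (0.00377), as did Spi1, the gene of PU.1, by 0.43 (0.0336, named after its value was seen), while Zeb2 fell by 0.48 (0.00633) and Id3, a factor of Kupffer cell identity, by 0.55 (0.0126). In the same comparison 4 of 7 dendritic cell markers, 1 of 3 tested monocyte markers and 2 of 5 lymphocyte markers rose, where 6.9% of all genes did, and of 5 stellate cell markers 1 rose and 4 fell. Itgax and Irf8 are also made by dendritic cells. Their part in these changes was not tested.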

How the data were processed

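Total RNA of whole liver was labelled with biotin and hybridised to 12 arrays. The authors deposited log2 signals. RMA is the tool named in the submitters' processing notes, with no version. The genome build and annotation behind the probes are not given in the sources used here. Gene names came from the platform annotation, which pairs 21789 of the 35556 transcript clusters with a single gene, 1621 with more and 12146 with no gene. Samples were grouped by title, since source names give the Mdr2-/- arrays the opposite Stat3 state.

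Every comparison was fitted with limma 3.58.1 (R 4.3.3; lmFit and eBayes, 8 residual degrees of freedom, prior 4.82 degrees and SD 0.13) on all 12 arrays and the 13977 genes above the array's 40th percentile (5.46 to 5.63) in at least 3 arrays. Benjamini-Hochberg adjustment at 0.05 ran over all of them. Precision is limited by having 3 arrays a genotype: the median standard error was 0.11, and 0.155 for the interaction. The fit was tested on simulated data. Intervals are 95%.

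The members and lists were chosen with earlier results of these data known. Named genes are all members and, from each further list, up to 3 called genes of smallest adjusted p per comparison. Alternatives were other filters, cluster rules, scalings, variance models, array weights, the compared groups only, groups by source name, a replicate block of letters, the Xist or Y-linked pattern, and leaving out each array. Promoters are from RefSeq. Figures used matplotlib 3.10.9 in Python 3.11.15.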

Additional observations from a re-analysis of the deposited data

How the results depend on the processing

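Of the 28 calls in the 4 comparisons, 13 held whichever array was left out and 7 held in every setting that could be fitted: Cx3cr1, Itgax, Gpnmb, Ctss, Cybb, Laptm5 and Mpeg1, all for Mdr2 loss in Stat3Δhc liver. Among these, Gpnmb passed the filter only through Mdr2-/- arrays and so had to differ. Itgax lay above the filter on 0 of 3 Stat3Δhc and 3 of 3 Mdr2-/- Stat3Δhc arrays. For both genes the calls that held are a description. For Mdr2 loss in Stat3Δhc liver, Folr2, Trem2 and Lgals3 also held whichever array was left out. They were lost only with groups by source name, which go against the Stat3 signal. Leaving out 1 array moved the number of genes called from 0 to between 0 and 6 for Stat3 deletion without the knockout, from 3 to between 0 and 8 with it, from 9 to between 3 and 9 for Mdr2 loss in floxed and from 16 to between 10 and 20 in Stat3Δhc liver. In the same order, the share of all genes called ranged from 0.494% to 5.39%, 2.16% to 10.6%, 7.91% to 15.2% and 8.27% to 18.7%. Array weights gave 11 calls for Stat3 deletion without and 11 with the knockout, where 21.1% and 16.4% of all genes passed. Stat3Δhc A then had a weight of 9.01 and Mdr2-/- Stat3Δhc B of 2.86.

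The count of 3 for Stat3 deletion on the knockout became 1 with no filter, 6 with a filter at the 60th percentile, 1 with every transcript cluster, 1 with median centring, 5 with trend and robust eBayes, 1 with the compared groups only, 1 with the replicate block and 0 with the sex pattern as covariate. In that order, the share of all genes called was 2.96%, 10.7%, 3.12%, 4.42%, 7.23%, 1.65%, 3.38% and 0.265%. For Mdr2 loss in floxed liver the covariate gave 0 in place of 9. The replicate block gave 0, 1, 9, 14 and 0 calls in the 5 comparisons, where the main fit had 0, 3, 9, 16 and 0. The letters share only a name: the deviations of same-letter arrays correlated at -0.41 to 0.37 over 18 pairs and those of other arrays at -0.37 to 0.48 over 36, and 6 of the 12 arrays correlated best with their own letter.

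Grouping by source name, which goes against the Stat3 signal, gave 18 calls for Mdr2 loss in floxed liver and 5 in the interaction. Over all genes it called 16% and 10.2%, against 12.8% and 0.0715% in the main fit. It turned Adgre1 (0.56), Lgals3 (-0.44) and Csf1r (0.54) for Stat3 deletion on the knockout, Adgre1 (-0.47) and Csf1r (-0.50) for Mdr2 loss in floxed and Adgre1 (0.47) in Stat3Δhc liver, and Adgre1 (0.93), Vsig4 (0.80), Timd4 (0.90) and Csf1r (0.83) in the interaction, by construction.

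Scaling moved the split of calls over all genes. With median centring it was 635 higher and 2052 lower for Mdr2 loss in Stat3Δhc liver (964 and 1467 otherwise) and 673 and 888 in floxed liver (995 and 790 otherwise). With cyclic loess it was 466 and 444 for Stat3 deletion on the knockout (261 and 545 otherwise). The cause of these shifts was not tested. With 3 arrays a genotype, a change near the median standard error of 0.11 could not be detected.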
